A study of Mus musculus with 2 samples.

Results

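The cells described here were the 1100 cells labelled d16 in which 8 genes linked to radial glia were highest on average. The genes were Fabp7, Efnb3, Hepacam2, Rfx4, Slc1a3, Celsr2, Atp1b2 and Ildr2. For each cell the score was the mean over these genes of the natural logarithm of 1 plus the reads per 10000 reads of the cell, and the 1100 highest of 4315 d16 cells were taken, out of 17720 cells in all. They are called score members here, and they made up 25.5% of the d16 cells. Because the cells were chosen by the reads of these 8 genes, their levels describe the choice and are no finding.

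The study asked whether activating AMPK, the kinase that senses cellular energy shortage, returns mouse epiblast stem cells (primed, mEpiSCs) to the naive state of embryonic stem cells. Single-cell RNA sequencing covered 5 populations of strain 129/Ola, pooled in 1 cDNA library and told apart by antibody-bound tags. The naive population was the Rex1-GFP embryonic stem cell line, and the primed population was an mEpiSC line with the Oct4GIP transgene, in which Oct4 promoter and enhancer sequences drive eGFP and puromycin resistance. The d8 and d16 cells had received AICAR, an AMPK activator, together with LIF for 8 and 16 days, and the d16+10p cells had then been grown for 10 passages in 2iL, a medium with kinase inhibitors and LIF. The primed cells received Activin A and FGF2 on embryonic fibroblast feeders during the day before the treatment, which itself needed feeders, so the cells read can include fibroblasts. No source used here says whether a line was a single clone. No population had a replicate, so no p-value is given, and each interval covers counting error at 95% only. Reads were not collapsed by molecular identifiers and are not independent molecules, so counting intervals are too narrow as measures of error. The table held 801 cells with the naive tag and 1826 with the primed tag. From the treatment it held 9627 cells at d8, 4315 at d16 and 1151 after the later passages, and no cell number was shared between tags. The cells with the naive and primed tags outnumbered the 500 cells of each that had been loaded, and d8 and d16+10p cells exceeded the 9000 and 1000 loaded, whereas d16 cells were fewer than the 9000 loaded. The source of these differences was not tested.

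Radial glia are the progenitors that line the ventricles of the developing brain and spinal cord. They carry a long process to the outer surface, they express intermediate filaments such as vimentin and nestin, and they divide to give neurons and, later, astrocytes and ependymal cells. The glutamate transporter GLAST (Slc1a3) and the brain lipid-binding protein (Fabp7) are their classical markers. Radial glia of the ventral midline of the neural tube, the floor plate, secrete Sonic hedgehog and guidance proteins such as Slit2 and netrin 1. Neural cells are not among the states named in the labels.

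The members were read at a median of 8884 reads and 2933.5 genes per cell, against 10911 reads and 3421 genes in the other 3215 d16 cells. All 17720 cells fell into 18 clusters with the study's clustering settings, whereas the study had first removed cells in a quality check. One of them, cluster 3, held 1041 of the 1100 members, or 94.6% (exact binomial interval, 93.1–95.9%). The other 59 members were spread over 13 clusters. Another 618 d16 cells of cluster 3 were not members, and they are used below as the nearest neighbours of the members. The other d16 cells lay in cluster 5 (1191 cells, the d16 cluster with abundant Pou5f1, the gene of the pluripotency factor Oct4), in cluster 6 (724 cells, in which the collagen gene Col3a1 was highest) and in other clusters (682 cells). None of the 1191 d16 cells of cluster 5 was a member, and a count of 0, with 3 cells taken as the limit, allows up to 0.252%. Of the score genes, 7 were among the genes that built the clusters, so their place in cluster 3 is partly set by the rule. With the score genes left out of the clustering, 93.2% of the members still fell into 1 cluster.

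The score had no gap at the limit. The lowest members had scores of 1.15443, 1.15454 and 1.15467, and the highest cells outside had scores of 1.15422, 1.1541 and 1.15369. The median was 1.54 in members and 0.244 in other d16 cells, and 294 d16 cells lay within 0.1 of the limit. A member had reads for 4 to 8 of the score genes. The members are therefore the upper end of a range of cells, not a set with an edge of its own.

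**Figure D1:**
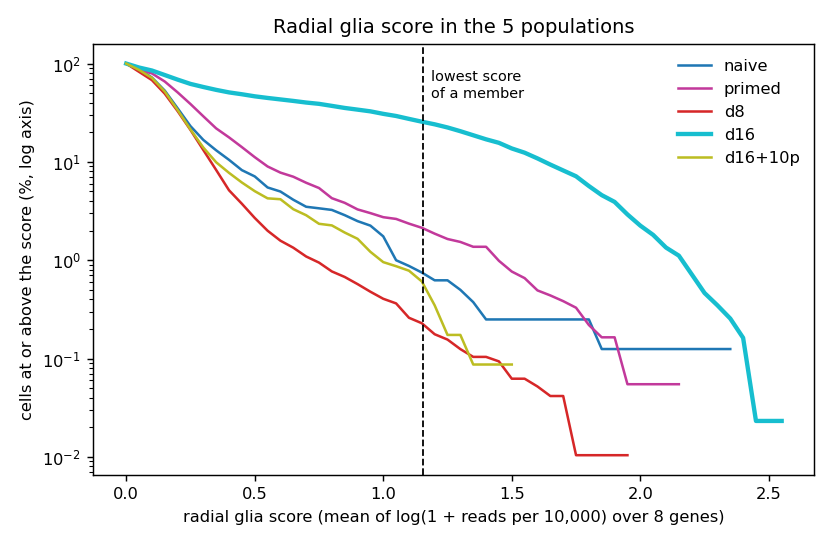
Percentage of cells of each population (y axis, log scale) at or above each score (x axis, mean natural log of 1 plus reads per 10000), with a dashed line at the lowest member score. At that line stood 25.5% of the d16 cells, a share set by the rule, and 0.218% to 2.08% of the cells of the other 4 populations.

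The levels of the score genes themselves are given as counts per 1000000 reads (CPM) summed over each group of cells. Fabp7 stood at 1093 CPM in the members, 373 in the rest of cluster 3, 28.2 in cluster 5, 45.8 in cluster 6 and 140.1 in the remaining d16 cells. Slc1a3 stood at 1046 CPM in the members, 366 in the rest of cluster 3, 40.7 in cluster 5, 213 in cluster 6 and 197 elsewhere. Rfx4, a transcription factor of the neural tube, stood at 215, 106, 10.2, 14.1 and 39.8 CPM in the same order. The planar polarity cadherin Celsr2 stood at 434 CPM in the members and 59.6 in the other d16 cells. The ephrin ligand Efnb3 stood at 700.0 and 94.2 CPM, and the sodium pump subunit Atp1b2 at 415 and 67.8. The immunoglobulin-family membrane proteins Ildr2 and Hepacam2 stood at 713 against 110.1 CPM and at 274 against 46.3 CPM. All 8 were second highest in the rest of cluster 3, and all except Celsr2, which was lowest in cluster 6, were lowest in cluster 5.

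Outside the 8 score genes, the members carried a broad set of glial and ventral neural tube genes at several times the level of other d16 cells, and had lower levels of the germline and naive pluripotency genes that were high in cluster 5. Of 10482 genes tested, with at least 10 CPM over all d16 cells, 660 were at least 2-fold higher in the members (6.3%) and 750 at least 2-fold lower (7.16%), on the scale of log2(CPM + 1). The median over all genes tested was −0.08. These genes come from the cells the score had chosen, so genes that go along with the score genes in any way had to differ, and the values describe the members without testing them.

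The 20 genes with the largest ratio were 5.02-fold to 7.07-fold higher in the members than in the other d16 cells. In all 20 the members were highest of the 5 groups of d16 cells and the rest of cluster 3 came next. Plppr1, which encodes a membrane protein of growing neural cells related to the lipid phosphatases (chr4:49059273-49340259, GRCm38), headed the ranking. Its level was 66.9 CPM in the members (62.4–71.7), 34.6 in the rest of cluster 3, 2.27 in cluster 5, 2.62 in cluster 6 and 10.4 in the remaining cells. Against the other d16 cells together (9.46 CPM) this was a 7.07-fold difference (6.28–7.98).

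Glial genes were well represented in that ranking. Ttyh1, a membrane protein of neural stem cells (chr7:4119408-4136708), had 248 CPM in the members (239–257), 105 in the rest of cluster 3, 13.1 in cluster 5, 20.2 in cluster 6 and 51.1 elsewhere. It was 6.46-fold higher in the members than in the other d16 cells (6.08–6.86). Gfap, the intermediate filament of astrocytes and of some radial glia (chr11:102887336-102900912), had 174, 68.2, 9.22, 16.9 and 48.7 CPM in the same order. The members exceeded the other d16 cells 5.81-fold (5.43–6.23). The water channel Aqp4 of astrocyte endfeet stood at 111 CPM in the members, 59.7 in the rest of cluster 3 and 4.32 in cluster 5. For these 3 genes the neighbours in cluster 3 lay between the members and all other d16 cells.

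Prom1, which encodes the apical membrane protein prominin 1 (CD133), was read at 379 CPM in the members, 192 in the rest of cluster 3, 25.1 in cluster 5, 35.7 in cluster 6 and 109 elsewhere. Slit2, the repellent that binds Robo receptors on growing axons (chr5:47983138-48307733), had 499.7 CPM in the members (487–512), 301 in the rest of cluster 3, 27.3 in cluster 5, 49 in cluster 6 and 118 elsewhere. Its difference from the other d16 cells was 5.15-fold (4.95–5.36). Of the 20 genes, Slit2 was the one in which the rest of cluster 3 came closest to the members.

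Receptors and adhesion molecules made up much of the remainder. Adcyap1r1, the receptor of the neuropeptide PACAP, had 63.7 CPM in the members against 9.2 in other d16 cells. Gabbr2, a subunit of the GABA-B receptor, had 73.2 against 12.7 CPM. The adhesion molecule Chl1 had 234 against 44.8 CPM. The cadherin Cdh6 had 184 against 36.5 CPM and was the lowest of the 20 by ratio together with Ecrg4, a gene of a secreted peptide, at 288 against 57.3 CPM. The synaptic organizer Cbln4 had 61.4 against 10.4 CPM, and the matrix proteoglycan gene Prelp 186 against 36.4. The other genes of the 20 were Gdpd2, Fbxo2, Fgl2, Efcab1, Nkain4 and Acot1. Acot1 has close copies next to it in the genome, and how reads were divided among them is not known.

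At equal depth, reads for these genes were found in more of the members than of the rest of cluster 3 or of cluster 5. Cluster 6 and the remaining d16 cells were not compared at equal depth. With each cell thinned to 5000 reads, which left out 150 members, 136 cells of the rest of cluster 3 and 40 d16 cells of cluster 5, between 12.9% and 73.5% of the members had a read of a given gene of the 20. The share was 4.56% to 56% in the rest of cluster 3 and 0.608% to 11.6% in cluster 5. How much of the share in cluster 5 is background was not tested. Without thinning the ranges were 18.2–81.8% in the members (median depth 8884 reads) and 3.11–26.6% in cluster 5 (13645 reads). Medians over single cells were above 0 in the members for only some of the 20 genes. For Plppr1, Adcyap1r1, Gdpd2, Fbxo2, Gfap, Aqp4, Cbln4, Gabbr2, Nkain4 and Acot1 the median was 0 in every group of d16 cells. Gfap, for example, was read in 29.3% of the members without thinning. The median member had 67.6 reads of Vim, 5.52 of Nr2f1, 3.86 of Slit2, 2.37 of Sox9 and 1.65 of Ttyh1 per 10000 reads, and 0 of Pou5f1, Dppa5a and Dazl.

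**Figure D2:**
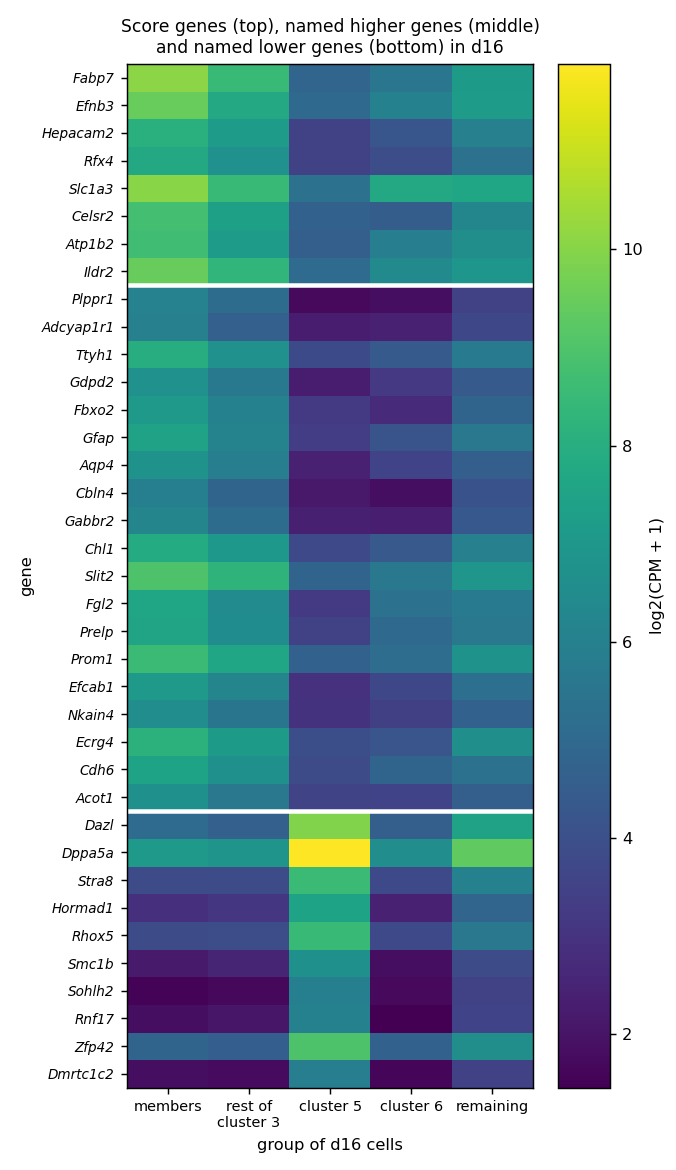
Levels as log2(CPM + 1) (colour) of the 8 score genes, 19 of the 20 genes most raised and the 10 genes most lowered in the members (from top to bottom) in 5 groups of d16 cells (columns). All 19 raised genes were highest in the members and next highest in the rest of cluster 3, and all 10 lowered genes were highest in cluster 5.

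The upstream sequences of a score gene and of a gene of the ranking are shown because RFX4, SOX and POU proteins act in neural progenitors and the members carried RNA of Rfx4, Sox9 and Pou3f2. Of the 28 score and ranked genes, 22 had a promoter in the RefSeq tables (build GRCm38.p6). The letters searched on both strands were GTTGCC (a half-site of RFX proteins), CATTGT (SOX proteins) and ATGCAAAT (the octamer of POU proteins), which share no overlap in the matches shown. The 250 bases before the start are printed 5′ to 3′ on the plus strand, for Rfx4 at chr10:84755798-84756047 and for Fgl2, a fibrinogen-like gene, at chr5:21372423-21372672, with matches in capitals. They were picked for their matches. Slc1a3, Gdpd2 and Acot1 also held a match, and the other 17 genes held none in the 300 bases searched.
Rfx4: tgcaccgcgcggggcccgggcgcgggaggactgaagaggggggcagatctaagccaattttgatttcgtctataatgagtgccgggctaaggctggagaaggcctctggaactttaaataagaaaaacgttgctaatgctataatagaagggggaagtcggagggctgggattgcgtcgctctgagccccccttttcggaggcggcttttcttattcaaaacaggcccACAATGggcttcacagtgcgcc
Fgl2: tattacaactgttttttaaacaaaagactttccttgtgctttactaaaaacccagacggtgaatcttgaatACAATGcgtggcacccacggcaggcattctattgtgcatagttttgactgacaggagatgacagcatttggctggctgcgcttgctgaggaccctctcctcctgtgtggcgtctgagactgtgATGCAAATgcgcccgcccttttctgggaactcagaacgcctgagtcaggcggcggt
The Rfx4 stretch holds ACAATG, the SOX letters on the other strand, 22 bases before the start, and another Rfx4 start in RefSeq had no match. Fgl2 holds the SOX letters 179 bases and the octamer 56 bases before its start. The RFX letters stood in 15.1% of promoters of genes at least 2-fold higher in the members, in 12.3% of those of all tested genes and in 12.5% of all 32851 promoters. The SOX letters stood in 7.87%, 7.52% and 12.6%, and the octamer in 2.31%, 1.32% and 1.74%. A match of letters is a description of the sequence and not a bound site. Fgl2 had 194 CPM in the members, 88.2 in the rest of cluster 3, 8.36 in cluster 5, 41.2 in cluster 6 and 52.7 elsewhere, and was 5.17-fold higher than in the other d16 cells (4.85–5.51).

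Radial glia markers outside the score followed the score genes. Of 22 such markers, 19 passed the filter on low values, and 16 of these were at least 2-fold higher in the members and none at least 2-fold lower, with a median log2 difference of 1.60. Vim, the vimentin gene, had 7134 CPM in the members, 5938 in the rest of cluster 3, 1131 in cluster 5, 3496 in cluster 6 and 3736 in the remaining d16 cells. Nes, the nestin gene, had 215 CPM in the members and 101 in the other d16 cells. Ednrb, an endothelin receptor of glial progenitors, had 259 against 54.5 CPM. Both intermediate filament genes and the receptor were thus higher in the members. Ptprz1, a receptor phosphatase of radial glia, had 67.2 against 14.5 CPM, the membrane proteolipid gene Gpm6b 424 against 96.6, and Hopx, a marker of outer radial glia, 85.7 against 23.9. The matrix gene Tnc (171 against 274 CPM) and Mfge8 (124 against 196) lay the other way by less than 2-fold. Bcan and Ncan, which encode matrix proteoglycans of the brain, had 0.823 and 7.82 CPM in the members and were below the filter.

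The transcription factors that define early neural progenitors were less uniform. Of 20 on the list, 14 passed the filter, 6 were at least 2-fold higher and none at least 2-fold lower, with a median of 0.78. Sox9, which drives the switch to gliogenesis, had 309 CPM in the members, 221 in the rest of cluster 3, 29.9 in cluster 5, 69.6 in cluster 6 and 114 elsewhere. The nuclear receptor gene Nr2f1 had 643, 359, 33.7, 356 and 183 CPM in the same order. Both were lowest in cluster 5, and Nr2f1 was at almost the same level in the rest of cluster 3 as in cluster 6. Pou3f2 (60.7 against 16.6 CPM), Sox21 (85.7 against 33.2), and the gliogenic genes Nfia (206 against 85.3) and Nfib (194 against 89) were higher in the members.

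Other defining progenitor genes were low or did not single out the members. Sox2, shared by neural progenitors and pluripotent cells, had 395 CPM in the members and 371 in the other d16 cells, with 328 in the rest of cluster 3, 579 in cluster 5 and 79.8 in cluster 6. Sox1 had 10.9 CPM in the members and 4.92 in the other d16 cells, Pax6 14.6 and 6.8, Hes5 17.4 and 2.61, and Sox3 2.06 and 3.73. All 4 were below the filter over d16 cells. The members thus carried the glial side of the radial glia programme and little of Sox1, Sox3, Pax6 and Hes5, so the label of radial glia-like neural progenitors is met in part, and the cells are called score members for that reason.

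Astrocyte genes differed from gene to gene. Of 12 markers, 10 passed the filter and 6 were at least 2-fold higher in the members, with none at least 2-fold lower and a median of 1.42. Besides Gfap and Aqp4 these included Aldh1l1, a folate enzyme of astrocytes (79.4 against 26.8 CPM), Aldoc, a glycolytic enzyme (113 against 40.2), the glutamate transporter Slc1a2 (37.4 against 12.5) and the bicarbonate transporter Slc4a4 (59.1 against 22.1). Apoe had 316 and 325 CPM, and the gap junction gene Gja1 90.7 and 140.2. S100b and Gjb6, genes of mature astrocytes, had 5.6 and 0.247 CPM in the members.

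Genes of the ventral midline of the neural tube were higher in the members as well. The list of 16 was written after values of these data had been seen and is no independent evidence. Of its 10 genes past the filter, 9 were at least 2-fold higher in the members and none at least 2-fold lower, with a median of 1.88. Shh, the signal of the floor plate and notochord, had 143 CPM in the members, 115 in the rest of cluster 3, 18.7 in cluster 5, 30.3 in cluster 6 and 59.1 elsewhere. Foxa1, a forkhead factor of the floor plate and endoderm, had 157, 107, 12.6, 39.1 and 54.2 CPM in the same order. Both were highest in the members and next highest in the rest of cluster 3. The guidance cue gene Ntn1 had 362 against 79.1 CPM in other d16 cells, the matrix gene Spon1 170.3 against 45.3, and the heparan sulphate enzyme gene Sulf1 1019.5 against 254. The homeobox gene Nkx6-1 of the ventral neural tube had 65.3 against 26.8 CPM and Lmx1a of the midbrain floor plate 27.5 against 12.3. Foxa2, another forkhead factor of the floor plate, was low at 13 against 6.59 CPM, and Corin stood at 1.15 CPM. Foxa1 also marks endoderm, but Sox17, Gata4 and Afp stood at 1.07, 0.329 and 0.411 CPM in the members. Of 10 notochord genes, also listed after values had been seen, 7 passed the filter, 3 were at least 2-fold higher (Nog, Shh and Foxa1) and 1 at least 2-fold lower (Krt18), with a median of 0.18.

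Genes that respond to Sonic hedgehog were not higher together with the ligand. Of 11 pathway genes, 8 passed the filter, 3 were at least 2-fold higher, Shh itself among them, and 1 at least 2-fold lower. The signal transducer gene Smo had 106 against 46 CPM and the co-receptor gene Cdon 81.1 against 38.2. The receptor and target Ptch1 had 68.1 CPM in the members and 87.2 in the other d16 cells. The latter include cluster 6, where it had 270.3 CPM. The effectors Gli1 and Gli2 had 2.22 and 8.06 CPM in the members against 2.61 and 25.3 in the others. Of these, Gli2 was the gene at least 2-fold lower.

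Notch pathway genes, which hold radial glia in the progenitor state, were higher in the members where they differed by 2-fold. Of 19, 12 passed the filter and 4 were at least 2-fold higher, with none at least 2-fold lower and a median of 0.83. The target gene Hey1 had 116 against 26.2 CPM, Lfng, which modifies Notch receptors, 28.5 against 6.23, and the receptors Notch1 and Notch3 100.3 against 45.6 and 62.7 against 28.5. The ligand Dll1, used by newborn neurons, was at 2.8 CPM in the members.

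The FGF list had 3 of 8 genes at least 2-fold higher and 1 lower, and the Wnt list 3 of 13 higher and 1 lower. Fgfr3, a receptor of ventricular progenitors, had 32.5 against 8.24 CPM and Fgfr2 47.6 against 22.1, whereas the FGF target Etv5 had 18.5 against 89.8. The ligand Wnt7b had 34.7 against 7.17 CPM and the receptor Fzd3 154 against 38.6, whereas Lef1, a mediator and target of Wnt signals, had 14.2 against 31.6. Over all genes tested, 6.3% were at least 2-fold higher and 7.16% at least 2-fold lower. The 1 lower gene of each list does not describe target genes as a set. Lef1 had 45.4 CPM in cluster 5. It did not pass 2-fold against d16 cells outside the clusters with abundant Pou5f1 (log2 −0.50). Of 10 planar polarity and ephrin genes past the filter, 4 were higher and 1 lower. The polarity cadherin Celsr1 had 105 against 24.6 CPM, and Epha4 had 26.1 against 61.5.

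Genes of neurons and oligodendrocytes, which descend from radial glia, were mostly low, and some ependymal genes were higher. Of 14 neuron markers, 7 passed the filter, of which 1 was higher (Map2, 64.9 against 29.2 CPM) and 3 lower. Tubb3, the tubulin of young neurons, had 12.1 CPM in the members and 28.1 in the other d16 cells, and Stmn2 52 and 145. The defining marker Rbfox3 stood at 1.23 CPM and Dcx at 8.23. Among proneural genes, Btg2, which slows division before neurons form, had 866 against 390.0 CPM, and no read of Neurog1 or Atoh1 was found in the members. In the oligodendrocyte list 3 genes passed the filter, 1 higher and 1 lower, and its defining genes Olig1, Olig2 and Sox10 stood at 0.0823, 0.329 and 0.165 CPM. Of 8 ependymal genes 3 passed the filter and 2 were higher, Foxj1, the driver of motile cilia (42.5 against 13.1), and Rfx3 (98.3 against 27.7).

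Genes of position along the neural tube were examined for some regions. Of 10 midbrain genes, 1 passed and was neither higher nor lower by 2-fold, and of 19 hindbrain and spinal cord genes 4 passed with 1 higher and 1 lower. Otx2 had 64.3 against 33.1 CPM, and Egr2, on the hindbrain and spinal cord list, 233 against 73.1. Among the subclusters of members described below, Egr2 was highest in subcluster 0 (330 CPM), as was Btg2 (1175). Fos (3119) and Fosb (1223), which rise during enzymatic dissociation, were highest there too. The Hox genes of the same list stayed below 10 CPM in subcluster 0. The part of dissociation in the levels of Egr2 and Btg2 was not tested. Of 18 genes of dorsoventral domains, 6 passed and 3 were higher, namely the roof plate gene Msx1 (91.3 against 27.2), Nkx6-1 and Lmx1a. Pax3, a gene of the dorsal neural tube, did not pass 2-fold (35.5 against 28.7 CPM).

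**Figure D3:**
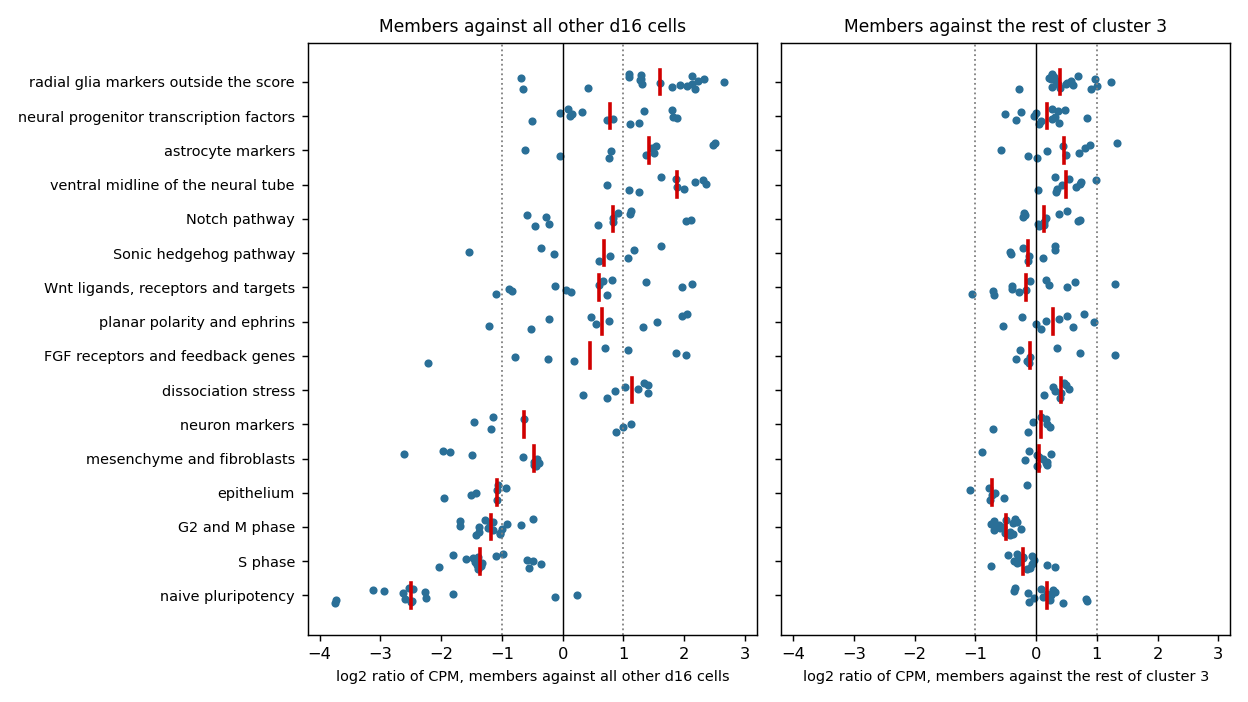
Log2 difference of CPM + 1 (x axis) of each tested gene (points) of 16 gene lists (y axis), with the list median as a red bar, for members against all other d16 cells (left) and against the rest of cluster 3 (right). The median of the radial glia markers outside the score was 1.60 on the left and 0.40 on the right, and that of naive pluripotency genes −2.50 on the left.

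The 10 genes most lowered in the members were genes of the germline and of naive pluripotency, 8.98-fold to 15.0-fold below the other d16 cells, and all 10 were highest in cluster 5. Dazl, an RNA-binding protein of germ cells, had 33.5 CPM in the members, 24.4 in the rest of cluster 3, 961 in cluster 5, 23.4 in cluster 6 and 174 elsewhere, a 13.8-fold difference (12.5–15.2) from the other d16 cells. Dppa5a, a gene of naive pluripotent cells, had 136, 116, 3801, 93.1 and 643 CPM in the same order, a 13.3-fold difference (12.7–14). In both the members, the rest of cluster 3 and cluster 6 had levels of the same order. Zfp42, the Rex1 gene, had 27.6 CPM in the members against 247, and the meiotic genes Stra8 and Hormad1 13.7 against 184 and 6.34 against 85.7. The other 5 were Rhox5, Smc1b, Sohlh2, Rnf17 and Dmrtc1c2. The members' levels were 0.848 to 1.51 times those of cluster 6 for these 10 genes, so the members and the collagen-high cells stood close together.

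Pluripotency lists gave the same picture. Of 15 naive genes tested none was at least 2-fold higher and 13 were at least 2-fold lower. Pou5f1 had 31.7 CPM in the members and 187 in the other d16 cells (361 in cluster 5), and Nanog 47.5 and 266. Klf4 and Klf5 were the exceptions, with 506 against 431 and 116 against 128 CPM. Of 7 primed epiblast and gastrulation genes tested, none was higher and 3 were lower.

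The comparison was repeated with the 1950 other d16 cells outside the 4 clusters with abundant Pou5f1, which held 10 members. Here 298 genes were at least 2-fold higher in the members (2.84%) and 226 at least 2-fold lower (2.16%). Of the 20 genes with the largest ratio, 17 were again among the top 20. None of the 10 germline and naive genes was 2-fold lower, and neither was any of the 15 naive genes. Sox2 now differed by a log2 value of 1.00. Radial glia markers outside the score were higher for 11 of 19 and lower for 1, with a median of 1.17, and ventral midline genes for 7 of 10, with a median of 1.22. Neural transcription factors were higher for 4 of 14 and astrocyte genes for 4 of 10, with 1 astrocyte gene lower. The glial and ventral genes were thus still higher, whereas the germline and naive genes no longer differed by 2-fold. In this comparison the lowest genes included several of connective tissue. Col3a1, which had 158 CPM in the members and 5458 in cluster 6, had a log2 difference of -3.44. Of 11 mesenchymal genes tested, 8 were at least 2-fold lower. In a further comparison, with the d16 cells outside cluster 3, 886 genes were at least 2-fold higher (8.45%) and 899 lower (8.58%).

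The members differed little from their neighbours in cluster 3. All 1100 members entered this comparison, including the 59 outside cluster 3. Of the 10482 genes, 47 (0.448%) were at least 2-fold higher in the members and 17 (0.162%) lower. Of the 20 leading genes 12 passed 2-fold here, with ratios over all 20 of 1.66 to 2.61 and a median of 2.04. Gfap was among the most different of all genes (log2 1.34), and Adcyap1r1 (log2 1.35) and Ttyh1 (log2 1.24) were close to it. Pomc, the gene of a hormone precursor of hypothalamic neurons and pituitary cells, had the largest ratio, with 50.3 CPM in the members and 15.5 in the rest of cluster 3, but it was higher still in the remaining d16 cells at 191. Most member reads of Pomc, 397, came from a group of 48 members, 23 of them outside cluster 3, described with the subclusters. The other members stood at 18.9 CPM. Wnt7b had 34.7 against 13.6 CPM, Fgfbp3, an FGF carrier protein, 40.2 against 15.7, and Eda, a ligand of the tumour necrosis factor family, 57.3 against 23.5.

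Genes lower in the members than in the rest of cluster 3 included early embryonic ones. Lefty1, an inhibitor of Nodal, had 70 CPM in the members and 188 in their neighbours, Pax3, a gene of the dorsal neural tube, neural crest and somites, 35.5 and 95.3, and Krt18, a keratin of simple epithelia, 172 and 365. Lef1 had 14.2 and 30.6 CPM. None of the radial glia markers outside the score, neural transcription factors, astrocyte or ventral midline genes was 2-fold lower in the members. Of these lists 1 of 19, 0 of 14, 1 of 10 and 0 of 10 genes were 2-fold higher, with medians of 0.40, 0.18, 0.47 and 0.49. The neighbours therefore carried most of the same genes at a lower level.

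The same gradient showed when the 4315 d16 cells were placed in 10 bins by score. Bins 1 and 2 held members only, and 236 cells of bin 3 were members. Ttyh1 had 326 CPM in bin 1, 232 in bin 2, 141 in bin 3, 98.7 in bin 4, 43.7 in bin 5 and 19.3 in bin 6, and then 11.4 to 15.9. Sox9 ran from 323 CPM in bin 1 to 42.2 in bin 10, Vim from 7708 to 1582, Shh from 174 to 13.2 and Gfap from 177 to 6.37. Those 4 genes, like Ttyh1, were highest in the top bin. Dppa5a was higher at low scores, with 90.7 CPM in bin 1 and 3115 in bin 9. Col3a1 was highest in the middle, at 104 CPM in bin 1 and 1795 in bin 6, and Sox2 was lowest there, at 407 in bin 1, 242 in bin 5 and 489.6 in bin 9. The bins also differed in cell clusters. Cluster 3 made up 98.6% of bin 1, 83.8% of bin 3, 31.9% of bin 5 and 2.32% of bin 7, and the 4 clusters with abundant Pou5f1 made up 0.231% of bin 1 and 71.9% of bin 9. A change in the mix of cells and a change within cells cannot be told apart from these sums.

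**Figure D4:**
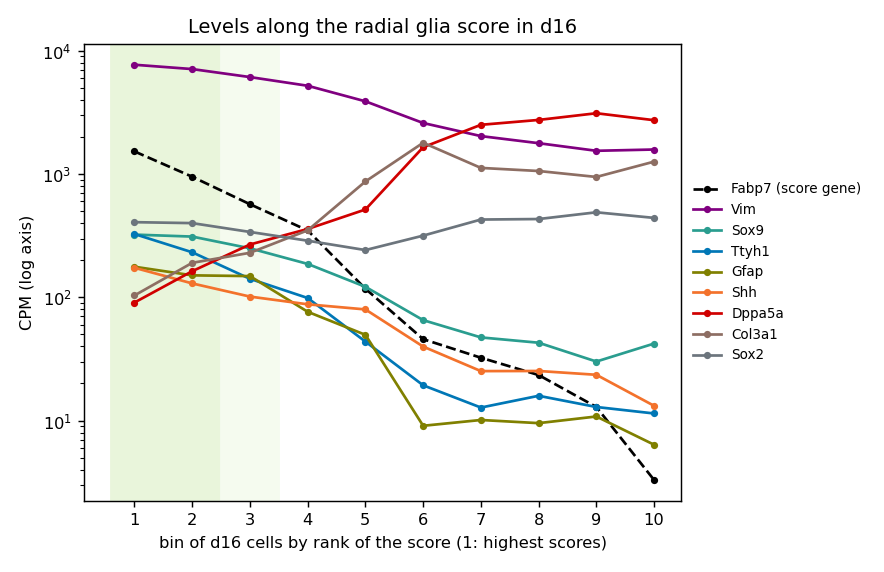
CPM (y axis, log scale) of the score gene Fabp7 (dashed) and 8 other genes over 10 bins of d16 cells by score (x axis, 1 highest), with green shading where cells are members and paler shading for bin 3. Ttyh1 went from 326 to 11.4 CPM and Shh from 174 to 13.2 between bins 1 and 10, whereas Dppa5a went from 90.7 to 2735 and Sox2 was lowest in the middle bins.

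Few cells of the other populations reached the same score. The limit was met by 6 of 801 naive cells (0.749%, 0.275–1.62%), 38 of 1826 primed cells (2.08%, 1.48–2.85%), 21 of 9627 d8 cells (0.218%, 0.135–0.333%) and 7 of 1151 d16+10p cells (0.608%, 0.245–1.25%). The d16 share of 25.5% was set by the rule and is no result. The median score was 0.159 in naive, 0.205 in primed, 0.148 in d8 and 0.155 in d16+10p cells, against 0.424 in d16 cells. Among the 4 populations that the rule did not use, the primed population had the largest share above the limit. Of the 72 cells above the limit in those 4 populations, 60 lay in cluster 3, and cluster 3 itself was 90.0% d16 cells. Their depth was a median of 5290 to 7602 reads, against 12168 to 21564 in the other cells of these populations. Whether these cells are d16 cells with a wrong tag was not tested.

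The genes ranked in d16 were also higher in these 72 cells. The same score chose these cells, so genes that go along with it had to be higher, and the values are a description. Of the 20 genes ranked in d16, 18 to 20 were at least 2-fold higher above the limit than below it in each population, beside 6.57% (d8) to 18.1% (naive) of all genes tested. The number of reads was small, with 50355 in the 6 naive cells and 288059 in the 38 primed cells. In the naive cells Adcyap1r1 counted as higher on 1 read, and Plppr1, Gdpd2, Fbxo2 and Cbln4 on 2 reads each. In primed cells Ttyh1 had 236 CPM above the limit (183–299) and 21.1 below, and Slit2 441 (368–525) and 42.2. In d8 cells Ttyh1 had 198 CPM above the limit (149–258) and 14.9 below, and Slit2 187 (139.9–246) and 45.8. Shh had 229 against 44.3 CPM in primed and 202 against 55 in d8 cells. Vim was high in all d8 cells, at 6085 CPM above and 4669 below the limit.

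The members were not uniform, and clustering them alone gave 6 subclusters, numbered here by size. The leading genes of a subcluster define it and are given as a description. Subcluster 0 held 537 cells (48.8%), all in cluster 3. It was led by Pdyn, the prodynorphin gene (75.1 CPM against 21.6 in the other members), Spon1 (298 against 94.5), Elavl4, Dipk2a and Kdr. Its level of Shh was 181 CPM, of Foxa1 218 and of Slit2 621. The ventral midline genes summed to 3405 CPM in it and to 2206 in the other members. The score genes summed to 5974 against 4246 CPM and the dissociation stress genes to 9675 against 6327, and their part in this difference was not tested.

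Subcluster 1 held 287 cells (26.1%). Among its leading genes were Mc3r, Scg2 and the Wnt-enhancing ligands Rspo2 (256 CPM against 60.1 in the other members) and Rspo3 (185 against 43.5). Msx1 stood at 180.4 CPM, against 57.8 in subcluster 0, and Shh at 128. Subcluster 4 was small, with 33 cells (3%) and all in cluster 3, and it was led by the neuropeptide gene Npvf (135 against 0.253), Hoxaas2, Lhfpl3, Pantr1 and Ndnf. It had the highest Fabp7 (2733 CPM), Gfap (899), Hopx (574), Hes5 (142) and Pax6 (65.8) of the 6, whereas Slit2 stood at 21.9 CPM. Hes5 and Pax6, low over the members as a whole, were thus read at a higher level in these 33 cells, which had 273699 reads in all. Hoxaas2 is an antisense transcript, and whether reads were counted by strand is not given in the sources used here.

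The other subclusters carried genes of division or of other cell types. Subcluster 2 held 179 cells (16.3%), of which 25 lay outside cluster 3, with a median of 16902 reads against 7031 in subcluster 0. It was led by the mitotic genes Pbk (114 CPM against 4.93), Pimreg, Ckap2l, Nuf2 and Nusap1, and genes of G2 and M phase summed to 2320.4 CPM against 349 in the other members. Subcluster 3 held 48 cells (4.36%), 23 of them outside cluster 3, and it was led by Reg3g (353 against 2.12), Cxcl13, Hp, Fgg and Pomc. Macrophage genes summed to 2361 CPM in it and to 293 in the other members. Subcluster 5 held 16 cells (1.45%), led by Tmem212 (208 against 0.502), Hdc, Ccdc81, Fam81b and Cfap161, several of them genes of motile cilia, with Foxj1 at 299.8 CPM. Subclusters 2 and 3 were the deepest, and doublets were not called here.

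**Figure D5:**
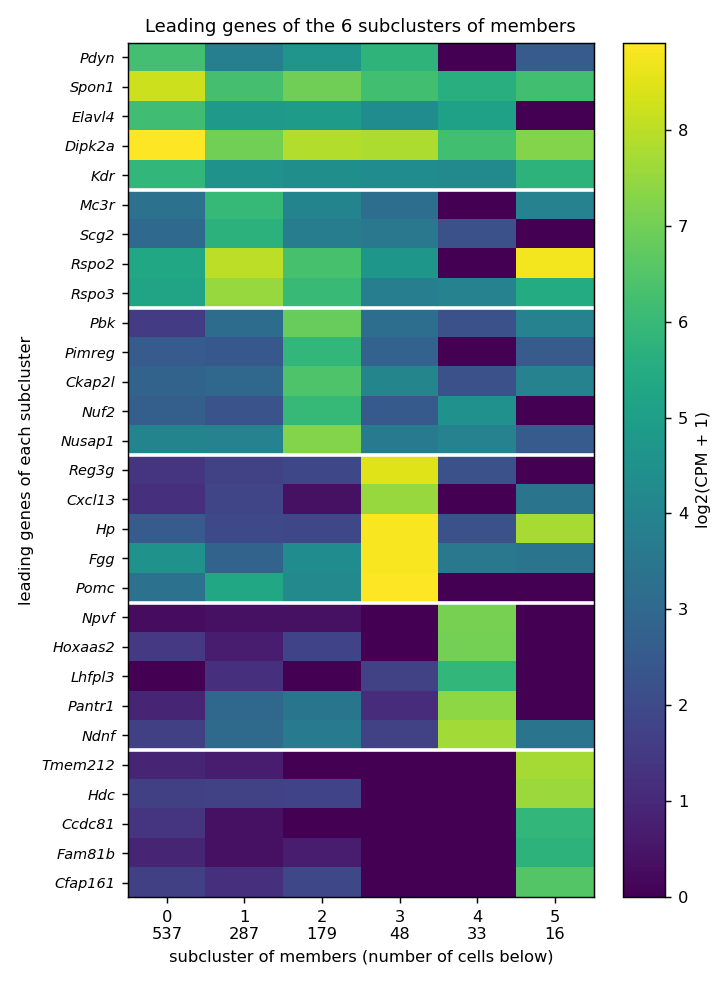
Levels as log2(CPM + 1) (colour) of the leading genes of each of the 6 subclusters of members (y axis, 5 genes each and 4 for subcluster 1) in the 6 subclusters (columns, with their cell numbers). The leading genes chose the blocks on the diagonal, and the subclusters held 537, 287, 179, 48, 33 and 16 cells.

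Over the members as a whole, proliferation genes were lower than in other d16 cells. Of 16 S phase genes, all tested, 11 were at least 2-fold lower and none higher, and of 16 genes of G2 and M phase 13 were lower and none higher. Outside the Pou5f1-high clusters none of these passed 2-fold. The summed level of S phase genes was 788 CPM in the members, 899.6 in the rest of cluster 3, 2647 in cluster 5 and 788 in cluster 6, so that the members stood level with cluster 6. The sums of the G2 and M phase genes were 871, 1240.4, 2867 and 1621 CPM in the same order.

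Other values moved with the members. Of 8 tested genes that rise during enzymatic dissociation, 5 were at least 2-fold higher in the members and none lower. Their sum was 7575 CPM in the members, 5811 in the rest of cluster 3, 1479.9 in cluster 5, 6839.6 in cluster 6 and 3486 elsewhere. Fos had 2424 against 956 CPM and Egr1 1899 against 1040.1. The share of mitochondrial reads was 8.22% in the members and 7.59% in other d16 cells. The tags were carried on antibodies to CD9 and CD63, and their genes had 569.9 against 321 and 1439.8 against 912 CPM. The part of stress, depth and tagging in these results was not tested.

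Markers of other cell types differed from list to list. Mesenchymal genes summed to 991 CPM against 15198 in cluster 6, and 4 of 11 tested were at least 2-fold lower than in other d16 cells, with none higher. Epithelial genes were lower for 6 of 7. Macrophage genes summed to 435 CPM in the members, 314 in the rest of cluster 3, 274 in cluster 5, 308 in cluster 6 and 2203 in the remaining d16 cells, with Lyz2 at 333 in the members and 1940.2 in the remaining cells, and none of the 4 tested passed 2-fold. Of the 3 neural crest genes tested none passed 2-fold in either direction, and of 3 smooth muscle genes none did. Of 2 endothelial genes Kdr was higher and Pecam1 lower.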

How the data were processed

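Cells of 5 populations were captured together on BD Rhapsody and sequenced as 1 cDNA library by TAS-Seq, beside a tag library. The deposited values are whole read counts per gene symbol and cell. Per the study's methods, the authors trimmed reads with cutadapt, mapped them with Bowtie2 to Ensembl GRCm38 transcripts, counted reads without molecular identifiers, dropped barcodes below the inflection of the depth curve, gave each cell its strongest tag after scaling and discarded, as doublets, cells whose first and second tags differed least. The submitters' processing notes name cutadapt 2.10, Bowtie2 2.3.4.1, Seurat 2.3.4 and mm10. No further cells were removed here and no doublet caller was run.

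Reads were summed per group of cells and given per 1000000 reads (CPM). Genes with at least 10 CPM over all d16 cells were tested, leaving out the score genes and those of the mitochondrial genome, and a gene was called at a difference of 1 in log2(CPM + 1). No significance test was possible with 1 sample per population, since cells are not replicates. Intervals are exact Poisson, binomial or Clopper-Pearson at 95%. Named genes were the 20 with the largest and the 10 with the smallest ratio among those with at least 20 CPM, without symbols of the form Gm and a number or ending in Rik, the 5 leading genes with at least 50 CPM of each subcluster, and members of the gene lists. A few of these genes are not reported here. In the comparison with the rest of cluster 3, genes were named after their values were seen. Members, lists and tests were chosen with earlier results of these data known. After values had been seen, the lists for ventral midline and notochord were added. The comparisons with the rest of cluster 3 and with d16 cells outside it were added then too. All cells were clustered in Seurat 5.3.0 (R 4.3.3) with 2000 variable genes, 56 components, 50 neighbours and a resolution of 0.8, and the members alone with 20 components, 20 neighbours and a resolution of 0.5. Pou5f1-high clusters were those with Pou5f1 reads in at least 75% of cells and a summed level no less than 25% of the highest cluster's. Python 3.11.15, numpy 2.4.6, scipy 1.17.1, pandas 2.3.3 and, for one alternative scaling, edgeR 4.0.16 were used. The ratios and intervals were tried on simulated independent Poisson counts, which is what the intervals assume. That trial cannot show how they behave for reads that are not independent. Coordinates come from GENCODE M21 (GRCm38).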

Additional observations from a re-analysis of the deposited data

How the results depend on the processing

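The number of genes at least 2-fold higher and lower in the members was 418 and 389 with a pseudocount of 10 CPM, 203 and 243 among genes of at least 50 CPM, and 1183 and 1458 with no filter. The main counts were 660 (6.3%) and 750 (7.16%) of 10482 genes. Changing the filter changed the number of genes tested, so the counts under other filters are not shares of the 10482. Of the 10482 genes, 298 (2.84%) and 226 (2.16%) passed against cells outside the Pou5f1-high clusters. Against the rest of cluster 3, 47 (0.448%) and 17 (0.162%) passed. With a pseudocount of 10 CPM, 8 genes of G2 and M phase were lower. Outside the Pou5f1-high clusters 0 of the 10 lowered genes, 0 naive genes, 0 S phase genes and 0 genes of G2 and M phase were lower. Against the rest of cluster 3, 12 of the 20 ranked genes were higher, as were 1 radial glia marker, 1 astrocyte gene and 0 neural transcription factors, and 0 of the 10 lowered, 0 naive, 0 S phase and 0 G2 and M phase genes were lower. There 5 of the lowered genes changed sign, with log2 differences of 0.44 for Dazl, 0.23 for Dppa5a, 0.0069 for Stra8, 0.28 for Zfp42 and 0.11 for Dmrtc1c2. The other 355 of 360 values of named genes under alternatives kept their sign, but 181 of them were counted as moved in value and 174 as the same.

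With 1400 members, 2.25% of naive, 3.01% of primed and 0.467% of d8 cells met the limit, and 91.1% of members lay in 1 cluster. With 800 members, 1.37% of primed, 0.104% of d8 and 0.0869% of d16+10p cells did, and 97.4% lay in 1 cluster. A score from cells thinned to 5000 reads chose 946 members, of which 866 (91.5%) were members here, and a score with unit variance per gene shared 1063 (96.6%). TMM scaling moved all log2 values by 0.05. No paired analysis was possible because no population had a replicate. The cause of these shifts was not tested. Depth limits genes with few reads, the smaller subclusters and the cells above the limit in other populations.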
